A study of Mus musculus with 6 samples.

Results

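Genes for 10 signals that tumour cells send to immune cells were examined in ribosome footprints of mouse ID8 cells: the macrophage growth factors Il34 and Csf1, the chemokines Ccl2, Ccl7, Cxcl1, Cxcl5 and Cxcl12, the cytokines Il6 and Lif, and Cd274, which encodes the checkpoint ligand PD-L1. They are 10 of the 53465 genes in the deposited table and were chosen by symbol, with the KO and WT counts of these same libraries in view. Their KO and WT values are therefore a description. Intervals and counts of calls are printed beside them to show the spread between libraries and the background, and are not independent tests of these genes. ID8 is a mouse ovarian cancer line that began as surface epithelium of the ovary. The libraries are titled KO (3) and WT (3), and the series' design text names NAT10-depleted cells (sgNat10) and control cells (sgNC), which are taken here as KO and WT; Nat10 encodes an acetyltransferase that modifies RNA. All 6 samples received cycloheximide (100 µg/mL for 2 minutes) before lysis, which holds ribosomes in place. No drug treatment is named for any library, nor whether a group is 1 clone or a pool. A footprint count depends on the amount of an mRNA and on its load of ribosomes, which cannot be told apart here. In such bulk libraries fewer cells that make a gene and less of it per cell cannot be told apart.

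Tumour cells shape their surroundings with secreted ligands. IL-34 and CSF-1 are unrelated in sequence but both activate CSF1R, the receptor that macrophages need to survive and mature. CCL2 and CCL7 draw monocytes through CCR2, CXCL1 and CXCL5 draw neutrophils through CXCR2, and CXCL12 acts on CXCR4. IL-6 and LIF signal through the shared subunit gp130 (Il6st) to the kinase JAK1 and the transcription factor STAT3, and PD-L1 on the tumour cell surface restrains T cells through PD-1.

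Because a footprint is only about as long as the windows below, genes of one family can share or lose counts where their coding sequences match. The windows show, for each pair of related ligands, 28 bases around the longest run that the 2 coding sequences have in common, which is in capitals. They are from GENCODE M21 transcripts on GRCm38, 5′ to 3′ on the coding strand, with positions counted from the first base of the start codon.
Il34 (coding bases 296 to 323, chromosome 8): tcaatgccaCTGAGTCTGTgatggatgt
Csf1 (coding bases 1463 to 1490, chromosome 3): cccagatccCTGAGTCTGTcttccacct
Ccl2 (coding bases 149 to 176, chromosome 11): gctacaagAGGATCACCAGcagcaggtg
Ccl7 (coding bases 143 to 170, chromosome 11): gctacagaAGGATCACCAGtagtcggtg
Cxcl1 (coding bases 179 to 206, chromosome 5): cccaaaccGAAGTCATAGCcacactcaa
Cxcl5 (coding bases 239 to 266, chromosome 5): ctacggtgGAAGTCATAGCtaaactgaa
Il6 (coding bases 501 to 528, chromosome 5): cccaatttCCAATGCTCTCctaacagat
Lif (coding bases 171 to 198, chromosome 11): tggcagcgCCAATGCTCTCttcatttcc
The common run was 10 bases for Il34 and Csf1 and 11 bases for the Ccl2 and Ccl7, the Cxcl1 and Cxcl5 and the Il6 and Lif pairs, well short of a footprint. For 9 of the 10 genes no 28-base stretch of the longest coding sequence occurred exactly in a transcript of another gene, on either strand. The exception was Cd274, where 438 of 843 such stretches (52.0%) also lay, on the opposite strand, in a transcript of the annotated gene AC119228.1. Inexact matches and unannotated sequence were not searched.

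Total counts ran from 2234305 to 3126208 in the KO libraries and from 1687466 to 2148715 in the WT libraries. Apart from genes with single reads, the number of genes per count had a local peak, here called the modal count, at 42, 46 and 60 in the KO libraries and at 15, 21 and 39 in the WT libraries. A count divided by the modal count of its library is given below as molecule equivalents. The name is an assumption: whether the modal count is the number of reads from a single molecule was not tested. Nat10 itself had counts of 315, 133 and 445 in the KO libraries and 168, 128 and 292 in the WT libraries, so the groups overlapped (log2 fold change -0.074, SE 0.48, edgeR quasi-likelihood adjusted p = 1.0). The 95% interval ran from -1.09 to 0.94 and the guide's target site is not stated, so Nat10 footprints neither bear out nor contradict the KO label. Every direction below is that of the libraries labelled KO against those labelled WT. Of 11 epithelial and mesothelial markers of the line Epcam was at 0 in all libraries, and the list had summed levels of 4860 to 5662 CPM in the KO libraries and 6342 to 6841 CPM in the WT libraries, where CPM is the count scaled to the TMM-adjusted library size. Among them the keratins Krt19 and Krt18 fell and Msln, mesothelin, rose in KO (log2 fold changes -0.92, -1.74 and 1.05, edgeR adjusted p = 0.0044, 0.020 and 0.015). These were the called genes among 8 tested in this list, where 4 fold changes were positive and 4 negative. Over all tested genes edgeR called 0.402%. Groups did not overlap with KO above WT for 2 and below for 3 of the list, and in either direction for 14.9% of all tested genes. Of the leukocyte markers Itgam, Tyrobp, Fcer1g, Coro1a and Cd3e were at 0 in all libraries, and the whole list summed to 5.99 to 9.93 CPM in the KO libraries and 0 to 43.5 CPM in the WT libraries. Of 9 fibroblast and endothelial markers Thy1 and Fap were at 0 in all libraries. That list summed to 5.85 to 18.8 CPM in the KO libraries and 42.8 to 89.4 CPM in the WT libraries. Col1a1 held 1, 38 and 6 of the 15, 44 and 20 summed counts in KO. In WT it held 120, 171 and 74 of 134, 179 and 74 (edgeR adjusted p = 0.479 for Col1a1). The part of these marker differences in the results below was not tested.

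**Figure D1:**
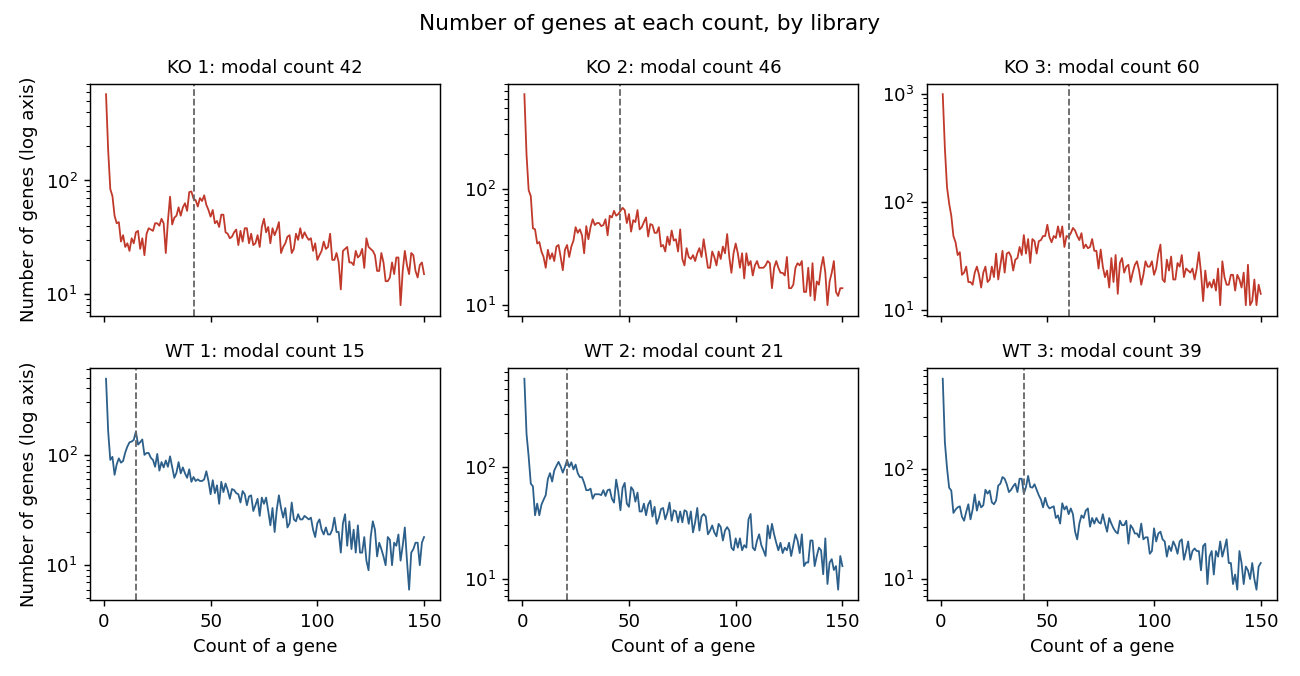
Number of genes (log axis) against the count of a gene, from 1 to 150, in each library, KO in the top row and WT below, with the modal count as a dashed line. Beside the many genes with a single read, each library has a second peak, at counts of 42 to 60 in the KO libraries and 15 to 39 in the WT libraries.

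Most of these signals gave few or no footprints at this depth. Ccl7, Cxcl1, Cxcl5, Il6 and Cd274 had a count of 0 in every one of the 6 libraries, Ccl2 and Cxcl12 had counts in libraries of 1 group only, and Il34, Csf1 and Lif had counts in both groups. Csf1 alone supplied 78.0% to 86.0% of the summed member counts of a KO library and 59.2% to 76.5% of those of a WT library. The filter on low counts kept 3 of the 10 (Csf1, Il34 and Lif). None of the 3 was called at an adjusted p under 0.05 in edgeR's quasi-likelihood fit over 8200 genes, where 0.402% of the genes were called (0.183% higher and 0.220% lower in KO). None had an unadjusted p under 0.05 there (6.49% of all tested genes), and none was called by DESeq2 (2.66% of its genes) or limma-voom (1.13%). Of the 3, Il34 alone had groups that did not overlap, as did 14.9% of all tested genes (6.94% with KO above WT and 7.93% with KO below WT). The fold change was positive for Csf1 and Lif and negative for Il34, and over all tested genes it was positive for 49.0% and negative for 51.0%. Because the KO and WT counts were in view when the genes were listed, nothing is read from these counts.

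**Figure D2:**
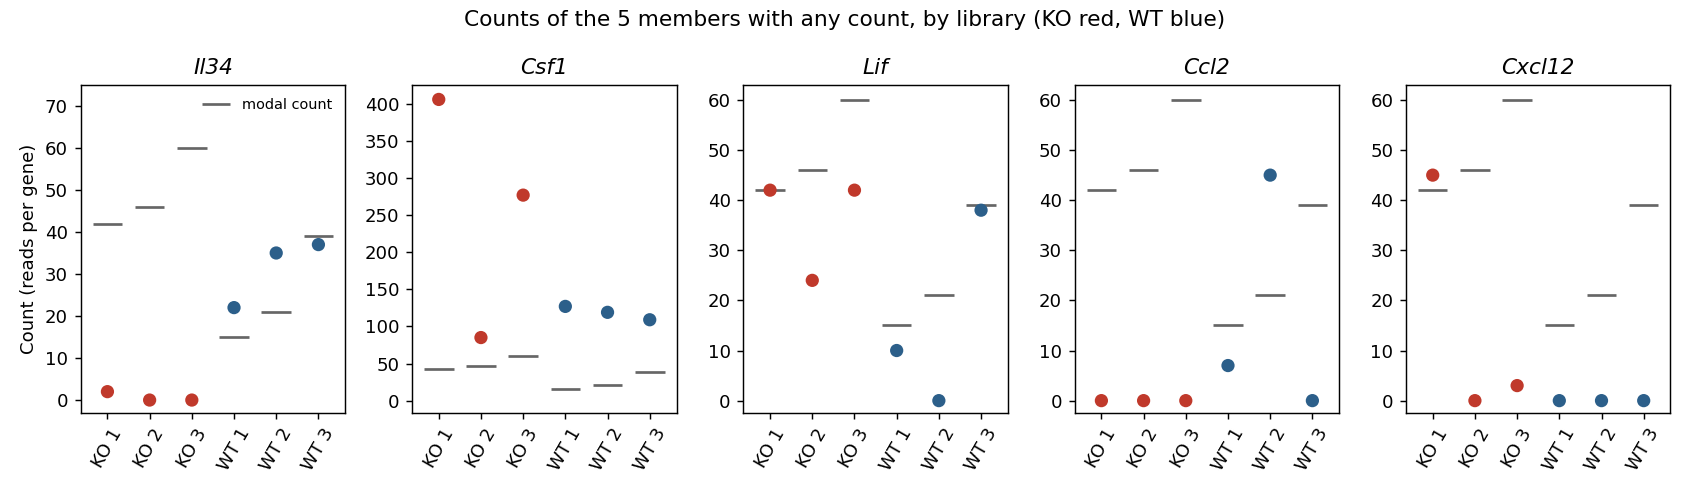
Counts (reads per gene) of the 5 members with any count in the 3 KO libraries (red) and the 3 WT libraries (blue), with the modal count of each library as a grey bar and a separate linear axis for each gene. Csf1 lies above the modal count in all 6 libraries, while the other 4 genes lie between 0 and 45 counts.

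Il34, the macrophage growth factor encoded on the minus strand of chromosome 8 (110741829 to 110805924, GRCm38; ENSMUSG00000031750), was read in every WT library and scarcely in the KO libraries. Its counts were 2, 0 and 0 in the KO libraries, against 22, 35 and 37 in the WT libraries. Every KO library lay below every WT library. Levels averaged 0.260 ± 0.450 CPM in KO and 17.4 ± 4.01 CPM in WT (SD, n = 3 each). The fit over all genes, which includes the spread between libraries, gave a log2 fold change of -5.80 (SE 2.81, 95% interval -11.8 to 0.20). Because the KO group holds only 2 counts, that estimate depends on the prior count.

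The 2 KO counts of Il34 amounted to 0.048 molecule equivalents, and the 94 WT counts to 4.08, with 0.949 to 1.67 in each WT library. At the WT share of all molecule equivalents, the 3 KO libraries together would have held 2.52 of them. The difference in Il34 thus rests on a few modal counts. Of the 8200 tested genes, 70 (0.854%) had a count in every WT library and at most 3 over the KO libraries, with a median of 0.678 molecule equivalents, and 2 of the 70 were called. The mirror pattern, counts in every KO library and at most 3 over the WT libraries, held for 21 genes (0.256%). The antisense genes Gm15894 and Gm15895 overlap the Il34 locus, and Gm15895 had 50 counts in WT replicate 3 and 0 in the 5 other libraries, while Gm15894 was at 0 throughout. The sources used here do not name the strand setting of the counting, so sense and antisense reads cannot be told apart, though no 28-base stretch of Il34 coding sequence lay in a transcript of either.

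Csf1, the other CSF1R ligand (ENSMUSG00000014599, minus strand of chromosome 3, 107741048 to 107760469), was the only member read well above the modal count in every library. It had 406, 85 and 277 counts in the KO libraries and 127, 119 and 109 in the WT libraries, or 1.85 to 9.67 and 2.79 to 8.47 molecule equivalents. The levels were 158, 36.4 and 85.9 CPM in the KO libraries and 77.2, 59.5 and 63.0 CPM in the WT libraries. KO replicates 1 and 3 lay above all WT libraries and KO replicate 2 below them, so the groups overlapped and the KO spread was the wider (93.6 ± 61.4 CPM in KO and 66.6 ± 9.40 CPM in WT, SD, n = 3 each). The log2 fold change was 0.49 (SE 0.55, 95% interval -0.68 to 1.66). It was -0.11 without KO replicate 1 and 0.88 without KO replicate 2, so its direction rested on 1 library.

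Per kilobase of coding sequence, on which levels of different genes can be compared, Csf1 stood at 84.2, 19.3 and 45.7 CPM per kilobase in the KO libraries and 41.1, 31.6 and 33.5 in the WT libraries. Il34 stood at 0.948, 0 and 0 in the KO libraries and 16.3, 21.2 and 26.0 in the WT libraries. In WT the mean per-kilobase level of Csf1 was thus 1.67 times that of Il34. Il34 made up 1.11%, 0% and 0% of the sum of both ligands in the KO libraries, against 28.4%, 40.2% and 43.7% in the WT libraries. The sum itself averaged 50.1 ± 33.1 CPM per kilobase in KO and 56.6 ± 3.38 in WT (SD, n = 3 each), and the groups overlapped. Averaged over all libraries, Csf1 stood above 65.9% of the 8087 tested protein-coding genes in level per kilobase. In KO the order of mean levels was Csf1 (49.7 ± 32.6 CPM per kilobase), Lif (21.7 ± 5.02), Cxcl12 (16.6 ± 26.6) and Il34 (0.316 ± 0.547), and in WT it was Csf1 (35.4 ± 5.0), Il34 (21.2 ± 4.87), Ccl2 (20.1 ± 26.9) and Lif (15.4 ± 18.6; SD, n = 3 each). The WT libraries of Csf1 lay above all those of Il34, while Il34, Ccl2 and Lif did not differ beyond their spread in WT.

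**Figure D3:**
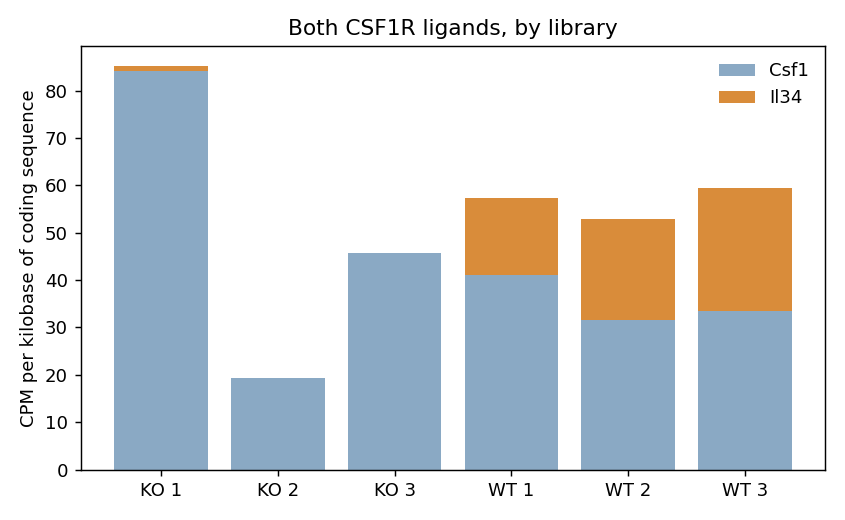
Level of Csf1 (blue) and Il34 (orange), stacked, in CPM per kilobase of coding sequence for the 3 KO libraries and the 3 WT libraries; bars start at 0 and each is 1 library. The summed level of the KO libraries spans 19.3 to 85.2 around the WT values of 52.9 to 59.5, and Il34 is visible only in KO replicate 1 and the WT libraries.

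The tested genes most like each ligand in pattern were found by a measure of likeness. Likeness was the root mean square difference of log2 CPM over the 6 libraries, each gene centred on its own mean. All tested genes were compared except members, genes without a symbol, and those with Gm, Rik or dotted names. For Il34 the nearest were Nxt2 (0.24), with counts of 3, 0 and 0 in KO and 20, 24 and 34 in WT, Zfp39 (0.34) and Asb13 (0.36), both at 0 in all KO libraries and between 16 and 39 counts in the WT libraries. For Csf1 they were Thoc1 (0.14), with 345, 70 and 231 counts in KO and 91, 119 and 89 in WT, Rnf20 (0.18) and Got1 (0.19). Within 2 Mb of Il34 on chromosome 8, 10 of 27 tested genes had a negative fold change and none was called by edgeR, and within 2 Mb of Csf1 13 of 21 had one, with none called.

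The receptor of both ligands, CSF1R, had 2 counts in KO replicate 3 and 0 in the 5 other libraries. Sdc1, a syndecan that binds IL-34, was the best read of the 16 receptor genes, at 200 ± 80.6 CPM in KO and 158 ± 43.0 CPM in WT (SD, n = 3 each; log2 fold change 0.34, SE 0.36, edgeR adjusted p = 1.0). Of the 16, 10 were at 0 in all libraries, among them the chemokine receptors Ccr2, Cxcr2 and Cxcr4 and the PD-1 gene Pdcd1, and of the 4 tested none was called by edgeR.

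The chemokine members had counts in few libraries. Ccl2 (chromosome 11, 82035571 to 82037453, plus strand), the monocyte attractant, had 0 counts in each KO library and 7, 45 and 0 in the WT libraries. Only WT replicate 2 exceeded its modal count, at 2.14 molecule equivalents, and the groups overlapped at 0. Ccl7, its neighbour on chromosome 11 (82045712 to 82047525), was at 0 throughout. Cxcl12 (chromosome 6, 117168535 to 117181367, plus strand), the ligand of CXCR4, showed the opposite side, with 45, 0 and 3 counts in the KO libraries and 0 in each WT library. Its 45 counts equal 1.07 molecule equivalents. Neither gene passed the filter, and no fold is given for either.

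Cxcl1 and Cxcl5, the neutrophil attractants on chromosome 5 (90891241 to 90893115 and 90759360 to 90761624), were at 0 in all libraries. A count of 0 allows up to 3 counts, or 0.931 to 1.28 CPM in a KO library and 1.5 to 1.82 CPM in a WT library. Taken as 3 modal counts in place of 3 reads, the limit is 49.2 to 59.1 CPM in a KO library and 27.4 to 67.6 CPM in a WT library. The mean level of Csf1, 66.6 CPM in WT, is close to the highest of these limits. These limits cover counting error only. Of the other CC chemokines 17 of 19 were at 0 in all libraries, and of the other CXC, CX3C and C chemokines 10 of 14. Of those that did not pass the filter, Cx3cl1, fractalkine, had 11, 97 and 7 counts in the KO libraries and 0 in each WT library. Only KO replicate 2 exceeded its modal count there, at 2.11 molecule equivalents. Cxcl17 went the other way, with 0, 0 and 1 counts in the KO libraries and 22, 10 and 0 in the WT libraries. So did Cxcl13, with 4 counts in WT replicate 2 and 0 elsewhere. The single tested gene of each list was not called by edgeR: Ccl25 averaged 3.21 ± 5.55 CPM in KO and 8.85 ± 7.85 CPM in WT, and Cxcl16 7.89 ± 8.09 CPM in KO and 14.5 ± 25.1 CPM in WT (SD, n = 3 each; edgeR adjusted p = 1.0 for both).

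Of the IL-6 family, receptors and signal carriers had more counts than the ligands. Il6 (chromosome 5, 30013114 to 30019981) was at 0 in all libraries. Lif, leukaemia inhibitory factor (chromosome 11, 4257557 to 4272514, plus strand), had 42, 24 and 42 counts in the KO libraries and 10, 0 and 38 in the WT libraries. In molecule equivalents these were 1.0, 0.522 and 0.70 in KO and 0.667, 0 and 0.974 in WT. The groups overlapped, at 13.2 ± 3.06 CPM in KO and 9.35 ± 11.3 CPM in WT (SD, n = 3 each). The log2 fold change was 0.50 (SE 2.23, 95% interval -4.26 to 5.26), and it ran from -0.083 without WT replicate 2 to 2.11 without WT replicate 3.

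Il6st, the shared subunit gp130, had 259, 171 and 37.2 CPM in the KO libraries and 88.8, 59.5 and 17.9 CPM in the WT libraries, and the groups overlapped (log2 fold change 1.49, SE 0.66, edgeR adjusted p = 0.704). Il6ra, the receptor of IL-6, averaged 4.96 ± 8.60 CPM in KO and 11.5 ± 11.8 CPM in WT, and Lifr, the receptor of LIF, averaged 58.2 ± 8.16 CPM in KO and 69.4 ± 51.7 CPM in WT (SD, n = 3 each; adjusted p = 1.0 by edgeR for both). Jak1, the kinase that both receptors use, was the single gene of the 10 pathway lists that edgeR called. Its levels were 171, 114 and 61.4 CPM in the KO libraries and 365, 373 and 398 CPM in the WT libraries. Jak1 fell by 1.72 on the log2 scale (SE 0.35, edgeR adjusted p = 0.049), and every KO library lay below every WT library. The call lay at the edge of the threshold: it was lost in 8 of 15 other settings, 5 of them fits without a single library, with adjusted p-values from 2.973e-05 to 0.2296 by the tools run, while the fold change stayed negative in all 15. Jak1 lies on chromosome 4 (101152367 to 101265282), where 7 of 10 tested genes within 2 Mb had a negative fold change (median -1.21), and 1 of them, the phosphoglucomutase Pgm1, was called.

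Downstream, Stat3 averaged 290 ± 56.4 CPM in KO and 256 ± 51.3 CPM in WT (SD, n = 3 each), and the inhibitor Socs3, which STAT3 induces, averaged 24.0 ± 24.7 CPM in KO and 53.8 ± 14.9 CPM in WT (log2 fold change 0.18, SE 0.28, and -1.16, SE 1.12; edgeR adjusted p = 1.0 for both). Jak2 rested on 34, 23 and 176 counts in KO and 0, 9 and 0 in WT, with groups that did not overlap and no call (adjusted p = 0.990 by edgeR). Grb2, an adaptor below gp130, averaged 38.5 ± 18.2 CPM in KO and 12.8 ± 8.48 CPM in WT (SD, n = 3 each; adjusted p = 1.0 by edgeR). Of 13 tested genes of this list, edgeR called 1 lower and none higher, 6 had a positive and 7 a negative fold change, and the median was -0.23, against -0.016 over all tested genes.

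**Figure D4:**
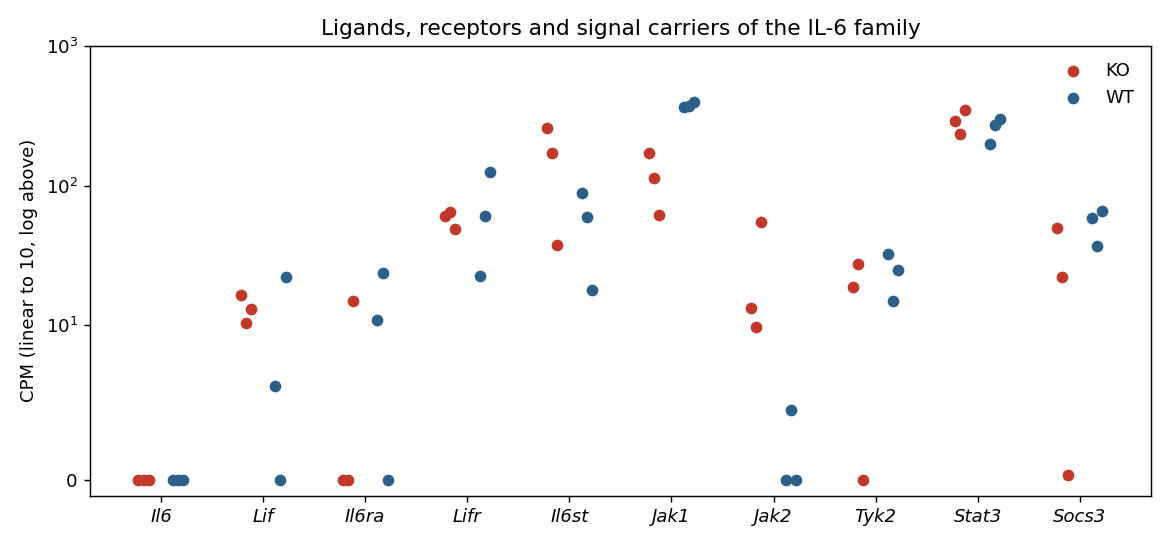
Level in CPM (axis linear to 10 and logarithmic above) of ligands, receptors and signal carriers of the IL-6 family, with 1 point per library, KO (red) left of WT (blue) for each gene. Il6 is at 0 in all libraries, Jak1 is the gene whose KO values (61.4 to 171 CPM) lie furthest below its WT values (365 to 398 CPM), and the points of the 2 groups mix for Stat3 and Lifr.

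Cd274, the PD-L1 gene (chromosome 19, 29367455 to 29388095, plus strand), was at 0 in all 6 libraries. Of its 870 coding bases 515 lay in stretches shared with the opposite strand of AC119228.1. No other gene of the deposited table with a GENCODE M21 match overlapped the Cd274 locus, so no counts of AC119228.1 from that locus were available. Whether the shared part affected the count of Cd274 was not tested. Its regulators were read better: of 15 genes on that list none was at 0 in all libraries, 13 were tested and none was called by edgeR. Irf1, the interferon-induced activator of Cd274, averaged 116 ± 31.6 CPM in KO and 133 ± 33.2 CPM in WT (SD, n = 3 each). The regulators with the smallest p-values were Irf2 (41.6 ± 19.9 CPM in KO and 84.2 ± 24.8 CPM in WT), Gsk3b (73.9 ± 9.94 CPM in KO and 36.9 ± 21.7 CPM in WT) and Btrc (35.9 ± 1.60 CPM in KO and 71.6 ± 32.8 CPM in WT; SD, n = 3 each), with edgeR adjusted p of 0.955 for Irf2 and 1.0 for the others. Cmtm6, which keeps PD-L1 on the cell surface, had 0 counts in each KO library and 35, 26 and 0 in the WT libraries, and its relative Cmtm4 had 30, 63 and 0 in the KO libraries and 0 in each WT library. Of 18 other checkpoint ligands and related surface proteins, 10 were at 0 in all libraries and 5 were tested, with none called by edgeR. Among the 5, Cd47, the signal that restrains phagocytosis, averaged 163 ± 44.1 CPM in KO and 141 ± 7.34 CPM in WT, and Pvr, a ligand of TIGIT and CD226, 117 ± 61.9 CPM in KO and 100.3 ± 9.23 CPM in WT (log2 fold change 0.21, SE 0.34, and 0.23, SE 0.44; adjusted p = 1.0 by edgeR for both). Lgals9, galectin-9, averaged 59.5 ± 33.4 CPM in KO and 101 ± 58.5 CPM in WT (SD, n = 3 each; edgeR adjusted p = 1.0).

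Other secreted cytokines gave a scale for the members. Spp1, osteopontin, was by far the most abundant of 31 genes, at 4631 ± 349 CPM in KO and 3767 ± 756 CPM in WT (SD, n = 3 each; log2 fold change 0.30, SE 0.15, edgeR adjusted p = 0.860, limma-voom adjusted p = 0.013). Il1rn, the antagonist of the IL-1 receptor, had 16.8, 24.8 and 41.3 CPM in KO and 45.0, 59.0 and 99.4 CPM in WT, groups that did not overlap (log2 fold change -1.29, SE 0.69, edgeR adjusted p = 0.893). Kitl, stem cell factor, averaged 9.36 ± 16.2 CPM in KO and 27.4 ± 16.3 CPM in WT (SD, n = 3 each; edgeR adjusted p = 1.0). Of the 31 genes 19 were at 0 in all libraries, among them Csf2, Tnf, Il1a and Il1b, and of 7 tested none was called by edgeR.

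Of 29 genes of the NF-κB pathway, which drives many cytokine genes, 19 were tested and none was called by edgeR, with 6 positive and 13 negative fold changes (median -0.21). Tlr4, the endotoxin receptor, had 84.3, 62.1 and 8.69 CPM in KO and 116, 127 and 117 CPM in WT (edgeR adjusted p = 0.875). Chuk, the IKK-alpha kinase, averaged 25.6 ± 12.96 CPM in KO and 60.2 ± 14.1 CPM in WT, and the adaptor Tab2 45.9 ± 16.5 CPM in KO and 12.2 ± 16.6 CPM in WT (SD, n = 3 each; edgeR adjusted p = 0.999 and 1.0). Of 13 proteins that bind cytokine mRNAs 11 were tested and none was called by edgeR, among them Pcbp1 (329 ± 75.6 CPM in KO and 523 ± 102 CPM in WT), Tial1 (98.6 ± 42.7 CPM in KO and 53.9 ± 30.4 CPM in WT) and Hnrnpd (337 ± 97.0 CPM in KO and 423 ± 39.7 CPM in WT; SD, n = 3 each). Zfp36, tristetraprolin, which speeds decay of AU-rich mRNAs, had 0, 0 and 4 counts in KO and 7, 50 and 101 in WT and did not pass the filter; DESeq2 called it. Of 10 genes that cleave, bind or shed cytokines 7 were tested and none was called by edgeR. Bgn, the proteoglycan biglycan, had 434, 391 and 308 CPM in KO and 193, 244 and 162 CPM in WT (log2 fold change 0.92, SE 0.27, edgeR adjusted p = 0.304; DESeq2 adjusted p = 0.0076). Hspg2, perlecan, averaged 2470 ± 571 CPM in KO and 1784 ± 145 CPM in WT, and the sheddase Adam10 132 ± 8.83 CPM in KO and 184 ± 46.6 CPM in WT (SD, n = 3 each; edgeR adjusted p = 0.547 and 1.0). For Hspg2 the limma-voom adjusted p was 0.0087. Over all 10 lists, 1 of 81 tested genes was called by edgeR (0.402% of all tested genes), 40 had a positive and 41 a negative fold change, and groups did not overlap for 12 (14.9% of all tested genes).

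**Figure D5:**
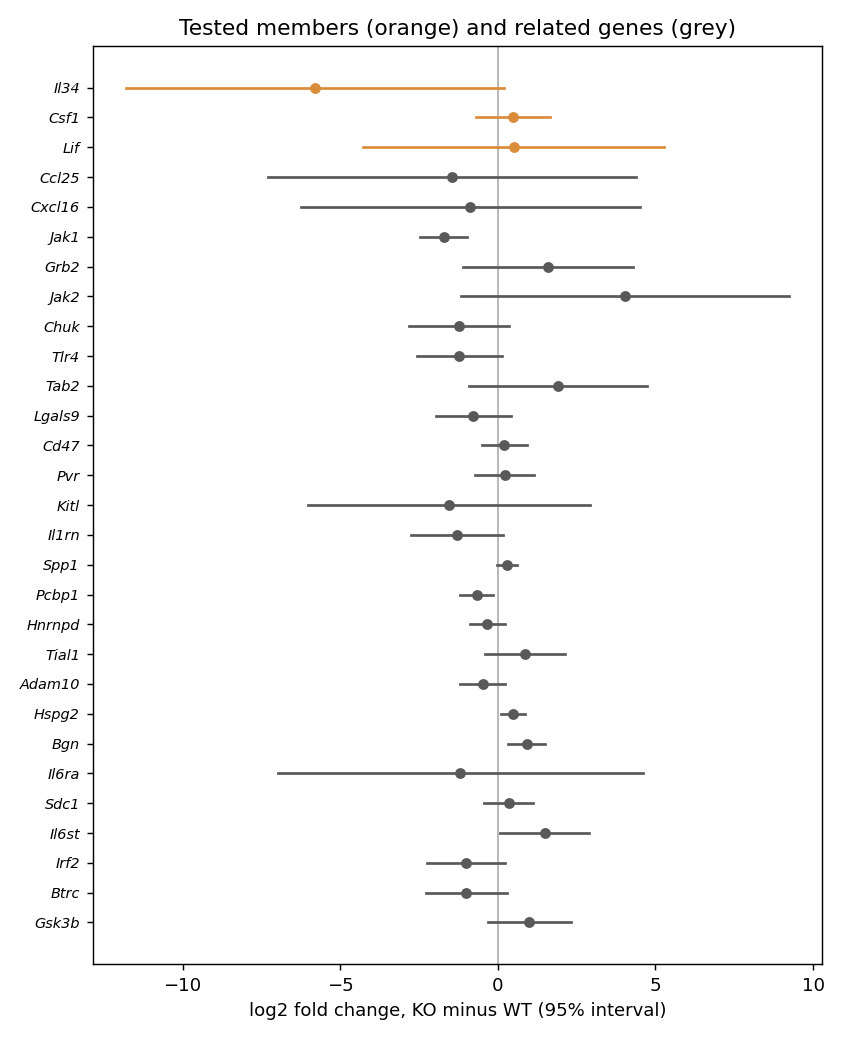
Log2 fold changes, KO minus WT, as points with approximate 95% intervals derived from the edgeR fit for the 3 tested members (orange) and the related genes of the 10 lists named by rule (grey). The interval of Il34 runs from -11.8 to 0.20, those of Csf1 and Lif lie around 0, and Jak1 is the called gene, at -1.72.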

How the data were processed

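The authors deposited whole-number counts per Ensembl gene, not normalized, with 1 column per library. Per the labels' protocols, adapters were trimmed with cutadapt, reads of 25 to 34 nt were kept, Bowtie took out rRNA and tRNA reads, and HISAT2 (genome, GRCm38) and Bowtie (transcriptome) aligned what was left. The submitters' processing notes also name featureCounts and DESeq2. The sources used here name no annotation, strand setting or handling of duplicates. Of 53465 genes 53360 matched GENCODE M21; the 105 others had at most 12 counts. Separate cultures are not stated for the replicates, and p-values then cover only the spread among the 6 libraries, which may be technical.

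Counts were fitted in edgeR 4.0.16 under R 4.3.3, by its robust quasi-likelihood test, with TMM factors and filterByExpr, Benjamini-Hochberg adjusted over 8200 genes, threshold 0.05. The fit was tried on counts simulated from the mean levels and dispersions of these genes. It called 0.955% of genes changed 2-fold, 18.6% of those changed 4-fold and 29.6% of those changed 8-fold. Of unchanged genes it called 0.0172%. A gene that was not called is therefore not shown to be unchanged. The modal count was the highest local peak between counts of 8 and 150 (kernel bandwidth 3). Other settings used DESeq2 1.42.0 and limma 3.58.1. Tables were made in Python 3.11.15 (numpy 2.4.6, pandas 2.3.3) and plots with matplotlib 3.10.9. The members, gene lists and settings were chosen with earlier results of these data known. Named were Nat10, all members, up to 3 tested genes with the smallest p from each list, the 3 genes nearest in pattern to Il34 and Csf1, and markers. Other genes named (Stat3, Socs3, Lifr, Irf1, Cmtm4, Cmtm6, Cx3cl1, Cxcl13, Cxcl17, Zfp36, Pgm1 and those at 0) were chosen after their values were seen. A further marker gene is not reported here.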

Additional observations from a re-analysis of the deposited data

How the results depend on the processing

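The count of called genes was 33, and 236 with DESeq2, 93 with limma-voom, 91 with no count filter, 110 on molecule equivalents and 6 to 29 without single libraries; no member was called in a setting that tested it. On molecule equivalents no member was tested, and with the filter of 50 counts only Csf1 was. Calls among the pathway lists numbered 3 with DESeq2 (Bgn, Jak1 and Zfp36), 3 with limma-voom (Hspg2, Jak1 and Spp1), 3 on molecule equivalents (Bgn, Hspg2 and Jak1), 0 with DESeq2's size factors, library totals or a filter of 50 counts in 3 libraries, and 0 to 1 without single libraries. With library totals the split was 27 higher and 16 lower, against 15 and 18. The Il34 value ran from -8.25 to -5.27 over 13 settings; its counts fix the sign. Uncalled signs turned for Nat10 (0.020 with limma-voom, 0.027 with library totals, 0.35 without WT replicate 3, 0.23 without KO replicate 2; -0.35 to 0.35 without single libraries), Cxcl16 (1.51 with limma-voom, 2.57 with the replicate block, -2.01 to 7.19 without single libraries, the highest without WT replicate 2), Cd47 (-0.024 to 0.35, the lowest without KO replicate 1), Pvr (-0.29 to 0.46, the lowest without KO replicate 2) and Sdc1 (-0.0082 to 0.58, the lowest without KO replicate 1); the cause was not tested. With the replicate number as a block 38 genes were called, Il34 stood at -6.64 and Csf1 at 0.27; same-numbered libraries did not deviate together (correlations -0.017, -0.0026 and -0.0067). The summed level of Il34 and Csf1, KO minus WT, ran from -24.0 to 8.86 CPM per kilobase without single libraries, and the Il34 share from -41.6 to -33.9 percentage points. Csf1 was the one member above its modal count in all 6 libraries, and for the others low depth and low expression cannot be told apart.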
